A study of Mus musculus with 12 samples.

Results

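The protamines and transition proteins are the small nuclear proteins that package sperm DNA, and here they comprise 5 genes: Prm1, Prm2, Prm3, Tnp1 and Tnp2. They were found through the accession of each array probe, which gave 6 probes of the 39429 on the array (2 for Prm3, 1 for each of the others) and 5 of the 25029 genes tested. RNA was taken from a Sertoli cell fraction and a germ cell fraction of the testis of 6 male C57BL/6J mice, with 1 single-colour Agilent array per fraction and mouse. The groups were the Sertoli fraction of 3 mice labelled TAp73 knockout (KO: mouse 120 at 4 months, 86 and 72 at 8 months), the Sertoli fraction of 3 control mice (99 at 5 months, 73 and 74 at 8 months), the germ fraction of the same KO mice and the germ fraction of the same control mice. TAp73 is the form of the p53 relative Trp73 that carries the transactivation domain, and the comparisons ask how its loss bears on maturing germ cells. The labels do not describe the deleted allele. Control mice 73 and 74 are titled het although their source names call them wildtype, and only mouse 99 is titled WT. The KO group therefore stands against a control group that may hold both genotypes, and values against mouse 99 alone are given where the Sertoli fractions are compared.

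In late spermatids most histones are first replaced by the transition proteins and then by the protamines, which condense the nucleus of the sperm head. Their genes are transcribed in round spermatids, and the messages are stored and translated days later, when the nucleus elongates. Prm1 and Prm2 encode the arginine-rich protamines, of which Prm2 is made as a precursor and trimmed. Tnp1 and Tnp2 encode the main basic transition proteins. Prm3 lies in the same cluster and encodes, in the mouse, a small acidic protein of the cytoplasm. Sertoli cells, the somatic nurse cells of the tubule, are not a known site of transcription of these genes.

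Prm1, Prm2, Prm3 and Tnp2 lie side by side on chromosome 16 and Tnp1 lies on chromosome 1, all on the minus strand. The 110 bases before each start are shown because the genes move together across the fractions (RefSeq, GRCm38.p6, written 5′ to 3′ along the gene). The windows are chr16:10796824-10796933 for Prm1, chr16:10792106-10792215 for Prm2, chr16:10790915-10791024 for Prm3, chr1:73015900-73016009 for Tnp1 and chr16:10788656-10788765 for Tnp2. Capitals mark matches to TGANNTCA, a loose form of the cAMP response element that the spermatid activator CREM binds, and to TATAA, the core of the TATA box, each sought on both strands (in Prm2 it reads TTATA, the match being on the other strand).
Prm1: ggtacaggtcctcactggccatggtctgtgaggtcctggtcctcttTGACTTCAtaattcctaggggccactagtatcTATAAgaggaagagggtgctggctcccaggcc
Prm2: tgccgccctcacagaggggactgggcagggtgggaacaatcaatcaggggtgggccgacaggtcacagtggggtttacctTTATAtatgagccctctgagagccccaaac
Prm3: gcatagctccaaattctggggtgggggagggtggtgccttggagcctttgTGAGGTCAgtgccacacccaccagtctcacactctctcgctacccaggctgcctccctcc
Tnp1: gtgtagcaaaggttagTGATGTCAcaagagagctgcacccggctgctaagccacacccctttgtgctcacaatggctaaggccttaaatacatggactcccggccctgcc
Tnp2: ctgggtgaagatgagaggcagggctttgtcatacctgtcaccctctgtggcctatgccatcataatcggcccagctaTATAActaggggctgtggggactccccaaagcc
TGANNTCA was found in the 250 bases before the start of 3 of the 5 genes (Prm1, Prm3 and Tnp1), against 11.9% of 32851 RefSeq promoters. TATAA was found in Prm1, Prm2 and Tnp2, against 22.8% of these promoters. The full element TGACGTCA, which is itself a case of TGANNTCA, was found in none of the 5 windows and in 1.55% of all promoters. Every match in the 5 genes lies within the bases shown. These are letter matches in a window and were not tied to binding.

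Levels are given as log2 of the processed signal over the array's own 75th percentile, so that 0 is the signal of a gene at that percentile. The 75th percentile ranged from 1355 to 5350, and control mouse 74 had the lowest, in its Sertoli fraction, against 2863 to 3929 on the other 5 Sertoli arrays. The scanner software flagged 0 spots as saturated. Trp73 did not stand lower in KO mice: its fitted probe was well above background on all 12 arrays and ranged from -2.91 to -2.72 in KO against -4.01 to -2.13 in control Sertoli fractions, and from -2.79 to -1.91 in KO against -4.28 to -2.68 in control germ fractions. Its other 2 probes were well above background on every KO array and on no array of mouse 99. In mice 73 and 74 one of them was above background on all 4 arrays, with levels between those of the KO mice and mouse 99 in each fraction, and the other on the germ arrays alone. Whether any of the 3 probes lies in the deleted part is not given in the sources used here, so they do not check the labels. The Sertoli fractions carried Sertoli markers at a summed level of 72.0 to 83.4 times the 75th percentile in KO and 61.2 to 78.7 in control mice, below the 167 to 223.6 of KO and 128.5 to 155.3 of control germ fractions. Of 22 Sertoli markers, 13 fell in the Sertoli against the germ fraction of KO mice and 12 in that of control mice, among them Tsx, Cst9, Fshr and Rhox5. Among all genes 37.1% and 36.5% fell. All 6 fibroblast and all 6 peritubular myoid markers rose in the Sertoli fraction of both genotypes, where 9491 (KO) and 9967 (control) of all 25029 genes rose. The names of the fractions below are therefore those of the labels.

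All 5 genes fell steeply in the Sertoli fraction relative to the germ fraction, in KO and in control mice alike. Prm1 averaged -2.16 ± 0.28 in KO Sertoli fractions and 6.46 ± 0.16 in KO germ fractions (SD, n = 3 each), a difference of -8.62 (SE 0.44, adjusted p = 1.34e-08, limma). In control mice it averaged -0.66 ± 1.12 in Sertoli and 6.55 ± 0.26 in germ fractions, a difference of -7.20 (adjusted p = 5.09e-08). The Prm1 message thus stood 394-fold lower in the Sertoli fraction of KO mice and 147.5-fold lower in that of control mice. Of the 5 genes, 5 fell in KO mice, where 37.1% of all genes did, and 5 fell in control mice, where 36.5% of all genes did.

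For Prm2 the difference between Sertoli and germ fraction was -9.50 in KO mice (adjusted p = 6.26e-09) and -8.34 in control mice (adjusted p = 1.53e-08). Tnp1 differed by -9.76 in KO mice (adjusted p = 8.62e-10) and by -8.64 in control mice (adjusted p = 1.71e-09). Tnp2 differed by -10.25 in KO mice (adjusted p = 5.49e-10) and passed in control mice too (adjusted p = 1.13e-09). These are falls of 723, 867 and 1219-fold in KO mice for Prm2, Tnp1 and Tnp2, and of 324, 399 and 512-fold in control mice. Prm3 was not well above background on any KO Sertoli array, so its fall in KO mice is a bound, at least 3141-fold lower in the Sertoli fraction (adjusted p = 2.39e-09). In control mice it was measured on all 3 Sertoli arrays and stood 1683-fold below the germ fraction (difference -10.72, adjusted p = 4.68e-09). The second Prm3 probe gave at least 1723-fold in KO mice and 1626-fold in control mice, where 1 of 3 Sertoli arrays measured it.

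**Figure D1:**
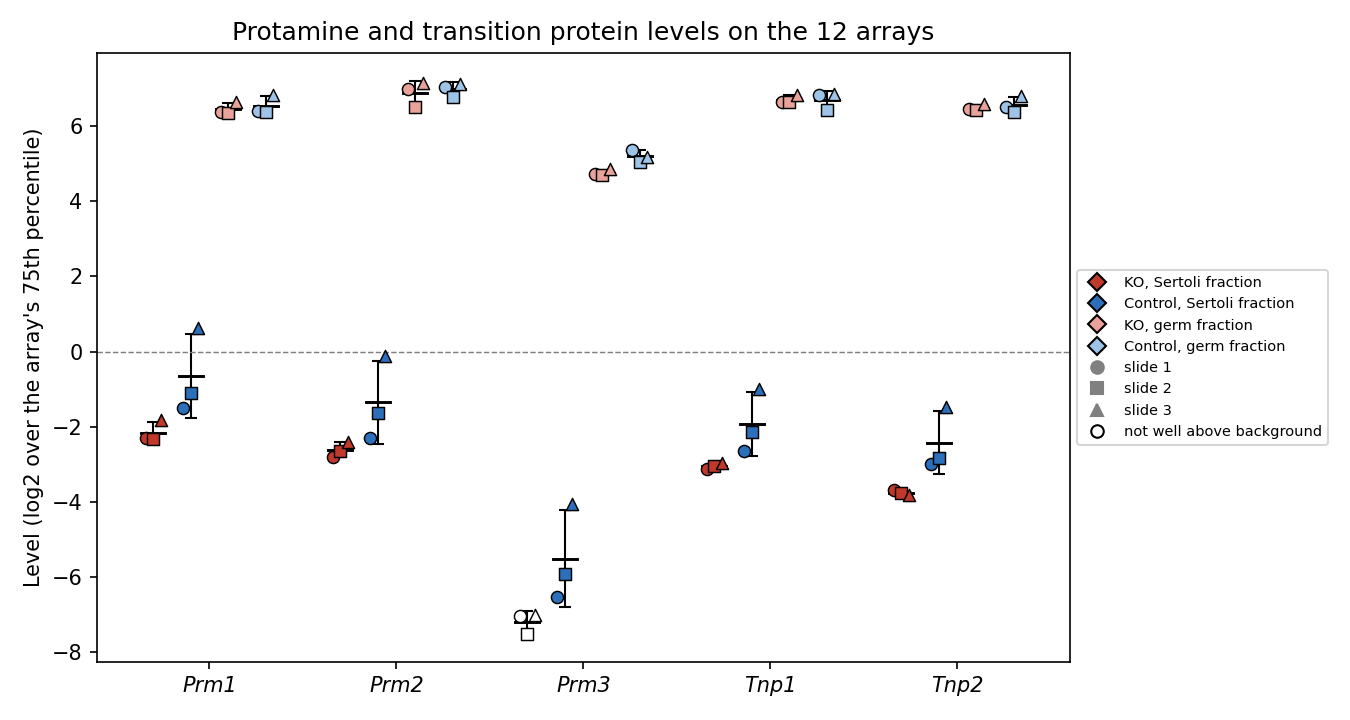
Level of each gene on the 12 arrays, as log2 over the array's 75th percentile (y axis), with KO left of control and the Sertoli left of the germ fraction for each gene. Points are arrays, shaped by slide and open where not well above background; lines are means and bars SD (n = 3). The germ arrays lie between 4.71 and 7.14 and the Sertoli arrays between -7.53 and 0.62.

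The germ signals stood near the top of each array's scale. Prm2 reached 68.5% to 94.4% of the brightest non-control spot on KO germ arrays and 86.6% to 100% on control germ arrays, where in mouse 99 it was itself that spot. Prm1, Tnp1 and Tnp2 lay between 61.3% and 86.4% of it, and Prm3 between 19.1% and 31.2%. The software also called the local background of these spots an outlier on all 6 germ arrays for Prm1, Prm2, Prm3 and Tnp2 and on 5 for Tnp1. What this bright end of the scale does to differences between germ arrays was not tested.

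Set against the same mouse's germ fraction, the signal left in the Sertoli fraction was a small share that differed between mice. For Prm1 it was 0.242%, 0.242% and 0.280% in KO mice 120, 86 and 72, against 0.415%, 0.561% and 1.34% in control mice 99, 73 and 74. For Tnp2 it was 0.0880%, 0.0847% and 0.0741% in these KO mice, against 0.139%, 0.166% and 0.322% in these control mice. The shares of Prm1, Tnp1 and Tnp2 did not overlap between the genotypes, and all 3 KO mice lay below all 3 control mice. These are 3 of the 5 genes, against 7.26% of the 24881 genes measured on all 12 arrays. Tnp1 left 0.112% to 0.121% in KO mice and 0.139% to 0.432% in control mice. Prm2 left 0.112% to 0.176% in KO mice and 0.155% to 0.655% in control mice, which overlap because KO mouse 86 lay above control mouse 99. Prm3 left 0.0208% to 0.0288% in KO mice, on signals not well above background, and 0.0260% to 0.163% in control mice, which also overlap. Mouse 74 had the highest share of all 6 mice for each of the 5 genes. These shares use scaled levels, and the 75th percentile of its Sertoli array was the lowest, at 1355. Before scaling its Sertoli signal was the highest of the 6 for Prm1, Prm2, Prm3 and Tnp1. For Tnp1 it was 674, against 621 in mouse 99 and 648 in mouse 73. For Tnp2 it was 489, below the 496 of mouse 99. The share of Prm1 was higher than that of Prm2 in 6 of 6 mice.

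**Figure D2:**
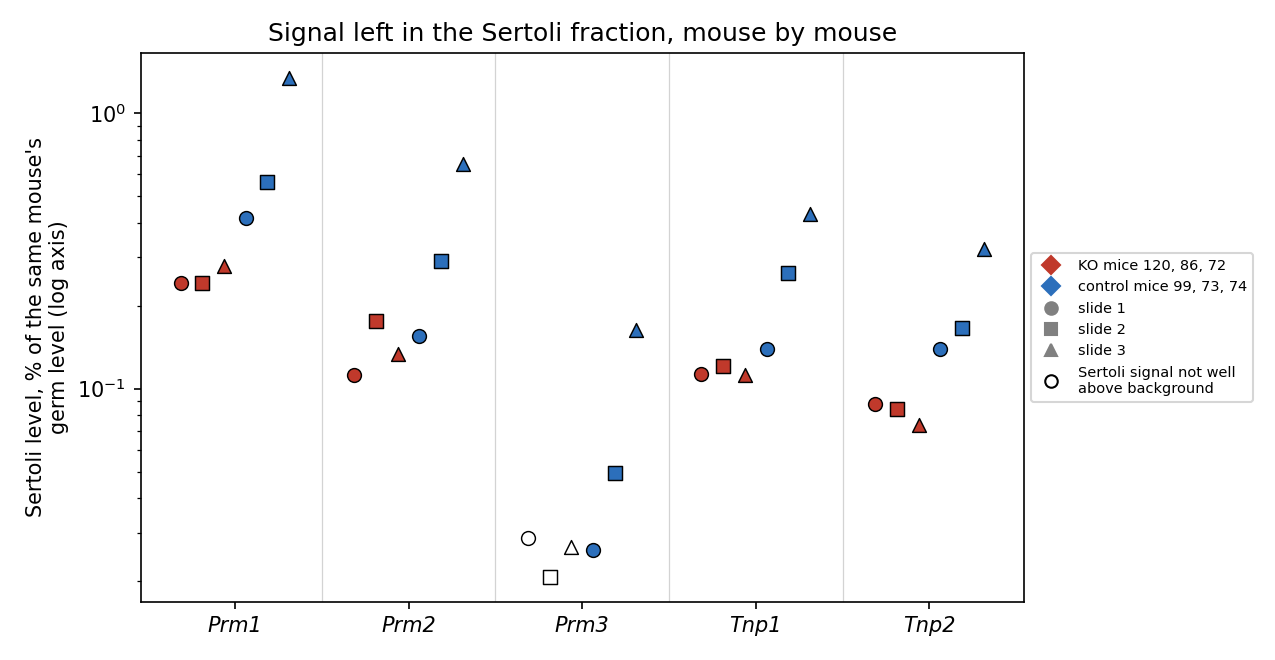
Sertoli level as a percent of the germ level of the same mouse (y axis, log scale) for each gene, KO mice on the left and control mice on the right within each gene, shaped by slide and open where the Sertoli signal was not well above background. The KO mice lie between 0.0208% and 0.280%, and control mouse 74 is the highest point of every gene, up to 1.34% for Prm1.

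In the germ fraction no member passed the test between KO and control mice. Of the 5 genes, 0 fell (0.004% of all genes did) and 0 had an unadjusted p under 0.05 on the lower side (1.23% of all genes). Prm1 stood at 6.39, 6.35 and 6.65 in KO mice 120, 86 and 72 and at 6.42, 6.39 and 6.84 in control mice 99, 73 and 74. The groups overlap, and the difference of -0.09 had a 95% interval from -1.07 to 0.89 (adjusted p = 0.998, limma). Prm2 stood at 6.99, 6.51 and 7.14 in these KO mice and at 7.04, 6.78 and 7.13 in these control mice, a difference of -0.10 (95% interval -1.08 to 0.88, adjusted p = 0.998).

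The transition proteins overlapped between the genotypes in the germ fraction as well. Tnp1 stood at 6.64, 6.64 and 6.84 in KO and at 6.83, 6.43 and 6.85 in control mice, a difference of 0.003 (95% interval -0.75 to 0.76). Tnp2 stood at 6.46, 6.43 and 6.59 in KO and at 6.51, 6.39 and 6.81 in control mice, a difference of -0.08 (95% interval -0.82 to 0.66). A germ difference as large as the ends of these intervals cannot be told from none with 3 mice per group.

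Prm3 was the member whose germ arrays did not overlap. It stood at 4.73, 4.71 and 4.86 in KO and at 5.36, 5.05 and 5.19 in control mice, so that every KO array lay below every control array. The difference of -0.44 (95% interval -1.52 to 0.64) did not pass (adjusted p = 0.997, limma). The second probe differed by -0.49 and its groups did not overlap either. Of the 5 genes, 1 thus lay wholly below the control arrays, against 9.11% of all genes. Markers of other cells moved in the same arrays: 6 of 6 Leydig markers were higher in KO germ fractions, with a summed level of 7.18 to 13.1 against 2.52 to 6.41 in control, as were 21 of 22 Sertoli markers, with 167 to 223.6 against 128.5 to 155.3. Of these 28 genes none passed the test. Also higher were 10 of 11 macrophage and leukocyte markers, with a summed level of 2.39 to 4.16 in KO against 2.02 to 2.06 in control, and 5 of 6 peritubular myoid markers, with 21.2 to 22.3 in KO against 20.8 to 24.5 in control. Of 6 fibroblast markers 5 were higher, with 2.98 to 4.37 in KO against 1.69 to 2.72 in control, and 1 rose, the growth factor receptor gene Pdgfra, by 1.25 (adjusted p = 0.0359, limma). The part of these cells in the Prm3 difference was not tested. In these bulk fractions fewer cells of a type and less RNA per cell cannot be told apart.

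In the Sertoli fraction all 5 genes were lower in KO than in control mice, without overlap by the probes in the fit. None passed the test over all genes. Prm1 stood at -2.30, -2.34 and -1.84 in KO mice 120, 86 and 72 and at -1.496, -1.09 and 0.62 in control mice 99, 73 and 74. Every KO array lay below every control array, the control arrays were spread over 2.12 log2 and mouse 74 was the highest. The difference was -1.51 (SE 0.44, 95% interval -2.49 to -0.52, unadjusted p = 0.00639, adjusted p = 0.9997, limma). Prm2 stood at -2.81, -2.64 and -2.40 in KO and at -2.29, -1.65 and -0.12 in control mice, a difference of -1.26 (SE 0.44, unadjusted p = 0.0164).

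The transition proteins showed the same order of groups. Tnp1 stood at -3.14, -3.06 and -2.96 in KO mice and at -2.66, -2.14 and -1.01 in control mice, a difference of -1.12 (SE 0.34, unadjusted p = 0.00792). Tnp2 stood at -3.69, -3.78 and -3.81 in KO mice and at -2.98, -2.84 and -1.47 in control mice, a difference of -1.33 (SE 0.33, unadjusted p = 0.00234). Tnp2 had the smallest p of the 5, and its adjusted p was 0.946 (limma). Prm3 stood at -7.04, -7.53 and -7.02 in KO mice, not well above background, and at -6.54, -5.93 and -4.07 in control mice, well above it on all 3 arrays. It was at least 2.53-fold lower in KO mice by the bound, with a fitted difference of -1.68 (unadjusted p = 0.0059, adjusted p = 0.9997). By its second probe it was at least 1.49-fold lower in KO, with 1 of 3 control arrays above background. The arrays of that probe overlapped: KO mouse 72 stood at -6.725 and control mouse 99 at -7.17, neither well above background.

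Of the 5 genes, 0 fell by the adjusted test in the Sertoli fraction, as did 0% of all genes. All 5 had an unadjusted p under 0.05 on the lower side, where 2.38% of all genes did. By the fitted probes all 5 lay wholly below the control arrays, where 4.83% of all genes did. Ordered by the difference from the lowest among 25029 genes, Prm1 stood at 93, Tnp2 at 164, Prm2 at 199 and Tnp1 at 315. Prm3 has only a bound in KO mice and is given no place in this order. The median difference of the 5 genes was -1.33 and that of all genes -0.10. The separation was also present in the signals before scaling: Prm1 gave 771 to 824 in KO against 1344 to 2085 in control Sertoli fractions, and Tnp2 gave 209 to 300.3 against 400.1 to 496. Prm2, Prm3 and Tnp1 likewise did not overlap before scaling by their fitted probes, while the second Prm3 probe did.

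The size of the Sertoli difference depended on the mice compared. Within slide 1, which held KO mouse 120 and control mouse 99, Prm1 differed by -0.81 and Tnp1 by -0.48. Within slide 2, with KO mouse 86 and control mouse 73, they differed by -1.25 and -0.91, and within slide 3, with KO mouse 72 and control mouse 74, by -2.46 and -1.96. KO stood below control on each slide for each of the 5 genes. These are differences of scaled levels, and mouse 74 had the lowest Sertoli 75th percentile, 1355. Before scaling, Tnp1 gave 441 in KO against 621 in control on slide 1. It gave 471 against 648 on slide 2 and 377 against 674 on slide 3. The part of the scaling was not tested. The Prm3 differences rest on KO Sertoli signals that were not well above background. Without mouse 74 the differences were -0.87 for Prm1, -0.65 for Prm2, -0.96 for Prm3, -0.65 for Tnp1 and -0.85 for Tnp2. Without both control mice titled het, which leaves mouse 99 as the single control and assumes that it varies like the other groups, they were -0.66 for Prm1, -0.32 for Prm2, -0.65 for Prm3, -0.39 for Tnp1 and -0.78 for Tnp2. The lowest adjusted p of these last 2 settings was 0.601, for Tnp2 without mouse 74.

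**Figure D3:**
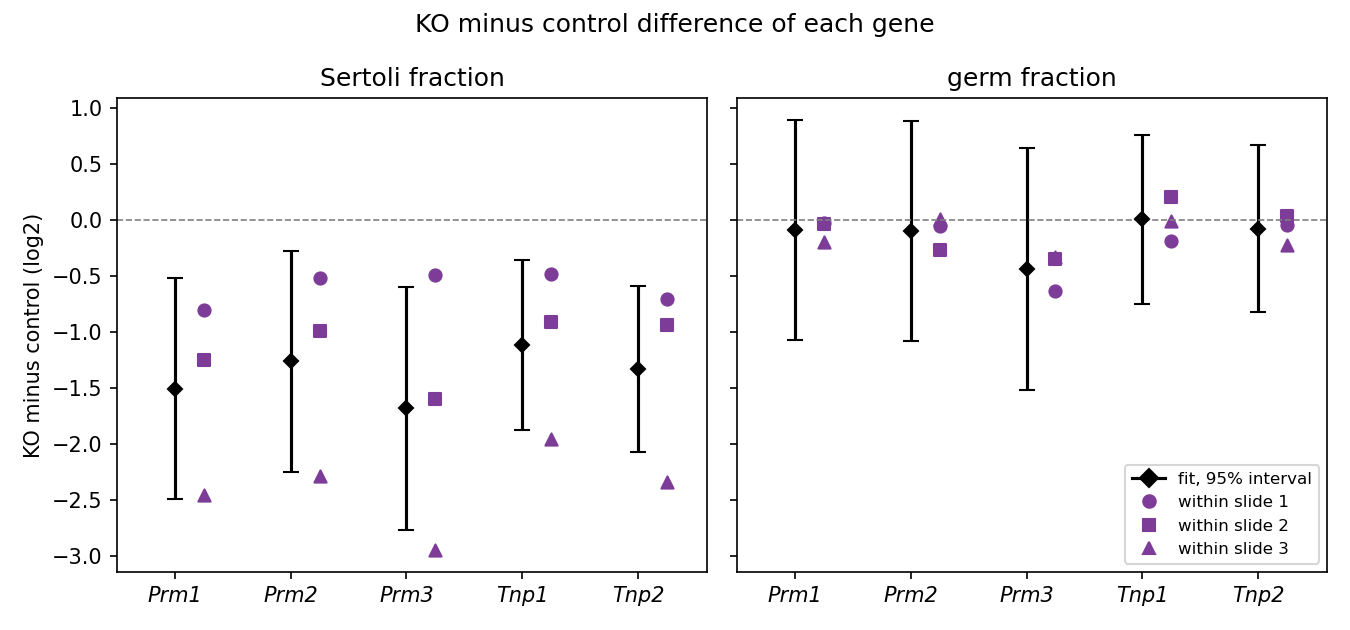
KO minus control difference of each gene (y axis, log2) in the Sertoli fraction (left) and the germ fraction (right). Black diamonds are the fit over all arrays with its 95% interval and purple points the difference within each slide, 1 KO and 1 control mouse each. In the Sertoli fraction every within-slide point lies below 0, from -0.48 to -2.95, and in the germ fraction every interval spans 0.

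The difference between the KO effects of both fractions (Sertoli minus germ) was tested as an interaction term. It was -1.42 for Prm1 (SE 0.63), -1.16 for Prm2 (SE 0.63), -1.24 for Prm3 (SE 0.69), -1.12 for Tnp1 (SE 0.48) and -1.25 for Tnp2 (SE 0.47). The Prm3 value rests on KO Sertoli signals that were not well above background. Of the 5 genes 0 passed (0.004% of all genes did, on the lower side), with adjusted p from 0.951 to 0.999 (limma). Prm1, Tnp1 and Tnp2 had an unadjusted p under 0.05 on the lower side, 3 of 5 against 4.09% of all genes. The KO effect on these genes was thus not shown to differ between the fractions.

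Most other tested proteins of spermatid chromatin fell in the Sertoli fraction as well. Of 12 tested histone variants and related proteins, 8 fell in the Sertoli against the germ fraction of KO mice and 8 in that of control mice. Among all genes 37.1% and 36.5% did. The medians of the 12 were -8.10 and -8.65 (all genes 0.09 and 0.21). H1f7, a linker histone of elongating spermatids, differed by -11.55 in KO and -10.84 in control mice, and Hils1, another spermatid linker histone, by -10.40 in KO and -9.87 in control mice. The testis histone H2bc1 was the member of this list that rose, by 0.99 in KO mice (adjusted p = 0.001) and 0.55 in control mice (adjusted p = 0.0287). It belongs to a family of similar sequences, as do H2al2a and H2al1n, so their probes may not be specific. Between KO and control mice 0 of the 12 passed in either fraction, with medians of -0.60 in the Sertoli and -0.24 in the germ fraction. In the Sertoli fraction H2al2a, an H2A variant of spermatids, was not well above background on any KO array and at least 2.16-fold lower than in control (fitted difference -1.54, adjusted p = 0.796, limma). In the germ fraction H2al1n differed by -0.74 (adjusted p = 0.365).

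The factors that carry out the exchange of histones for protamines were less uniform. Of 21 tested, 15 fell and 2 rose in the Sertoli fraction of KO mice, with the same counts in control mice and medians of -2.07 and -1.96. Among all genes 37.1% fell in KO and 36.5% in control mice. Brdt, the testis bromodomain protein that reads hyperacetylated histones, differed by -6.63 in KO and -6.66 in control mice. Phf7, a ubiquitin ligase of early spermatids, differed by -6.17 in KO and -6.35 in control mice. Tssk6, a kinase needed for histone removal, differed by -7.98 in KO and -8.27 in control mice. Top2b, a topoisomerase found in many cell types, rose by 2.38 in KO and 2.35 in control mice. Between KO and control mice 0 of 21 passed in either fraction, with medians of -0.02 in the Sertoli and -0.13 in the germ fraction.

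The transcription regulators of haploid germ cells fell in the Sertoli fraction as well, 12 of 14 tested in KO mice and 12 in control mice. The shares over all genes were 37.1% in KO and 36.5% in control mice. Fhl5, the coactivator of CREM also called ACT, differed by -8.40 in KO and -8.61 in control mice. Sox30, a transcription factor of meiotic and early haploid cells, was not well above background on any Sertoli array and was at least 139-fold lower there in KO and at least 129.6-fold lower in control mice. In the germ fraction Crem stood at 4.06 ± 0.22 in KO and 4.24 ± 0.13 in control mice (SD, n = 3 each), and Fhl5 at 4.04 ± 0.05 in KO and 4.61 ± 0.21 in control mice (adjusted p = 0.924, limma). Tbpl1, a relative of the TATA-binding protein, stood at 4.69 ± 0.09 in KO and 4.99 ± 0.20 in control germ fractions. Of the 14 genes 0 passed between KO and control mice in either fraction, with medians of -0.14 in the Sertoli and -0.14 in the germ fraction.

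Protamine messages are held back from translation by RNA-binding proteins. Of 18 tested genes listed for the storage or the translation of messages, 11 fell and 3 rose in the Sertoli fraction of KO mice. In that of control mice 13 fell and 3 rose. Among all genes 37.1% fell in KO and 36.5% in control mice. Ybx2, the germ cell Y-box protein that binds stored messages, differed by -8.09 in KO and -7.43 in control mice, and Ddx4, the germ cell helicase, by -9.80 in KO and -10.54 in control mice. The 3 that rose in KO mice were Ddx3y, Ddx3x and Elavl1, which many somatic cells express. Among 6 tested kinases and phosphatases of protamines, Srpk1 differed by -3.49 in KO and -3.63 in control mice, while Prkca rose by 3.32 in KO and 3.59 in control mice. Between KO and control mice 0 of 18 and 0 of 6 passed in either fraction. Srpk2, a protamine kinase, differed by -0.60 in the Sertoli and -0.56 in the germ fraction (adjusted p 0.9997 and 0.621).

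Markers of germ cell stages were set beside the members in the Sertoli fraction, where 16324 of all 25029 genes were lower in KO mice. Of 26 elongating spermatid markers, chosen without the members, 25 were lower in KO than in control Sertoli fractions and 0 passed, with a median of -0.61. Of the 26, 3 lay wholly below the control arrays, where 4.83% of all genes did. The summed level of the 26 markers was 0.892 to 0.979 in KO against 0.926, 1.37 and 2.10 in control mice 99, 73 and 74. Mouse 99 thus lay within the KO range. These sums use scaled levels, and mouse 74 had the lowest Sertoli 75th percentile, 1355. Of the 26 markers, 9 in KO and 4 in control mice were not well above background on any array. Odf1, a protein of the outer dense fibres, was among these in both. The members' own summed level was 0.544 to 0.676 in KO against 0.854 to 3.38 in control Sertoli fractions. Smcp, a mitochondrial capsule protein of sperm, differed by -1.399 and Akap4, the main fibrous sheath protein, by -1.26 (adjusted p = 0.9997 for both, limma). Of 18 round spermatid markers 13 were lower in KO Sertoli fractions, with a median of -0.21. Their summed level was 0.949 to 1.07 in KO against 0.834, 0.897 and 1.498 in control mice 99, 73 and 74. Mice 99 and 73 thus lay below every KO mouse, and only mouse 74 lay above them. Of 20 spermatocyte markers 9 were lower, with a median of 0.06 and a summed level of 1.23 to 1.29 in KO against 1.31 to 1.67 in control mice. None of these round spermatid and spermatocyte markers passed. The part of carried-over germ cells or their RNA in the members' Sertoli values was not tested.

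In the germ fraction 13644 of all 25029 genes were lower in KO mice. Of the 26 elongating spermatid markers 25 were lower in KO germ fractions, with a median of -0.33. Of these markers 12 lay wholly below the control arrays, where 9.11% of all genes did. Of the 18 round spermatid markers 17 were lower, with a median of -0.27. The median of the 5 members was -0.09 and that of all genes -0.04. None of these markers passed the test. The difference between the lists was not tested.

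**Figure D4:**
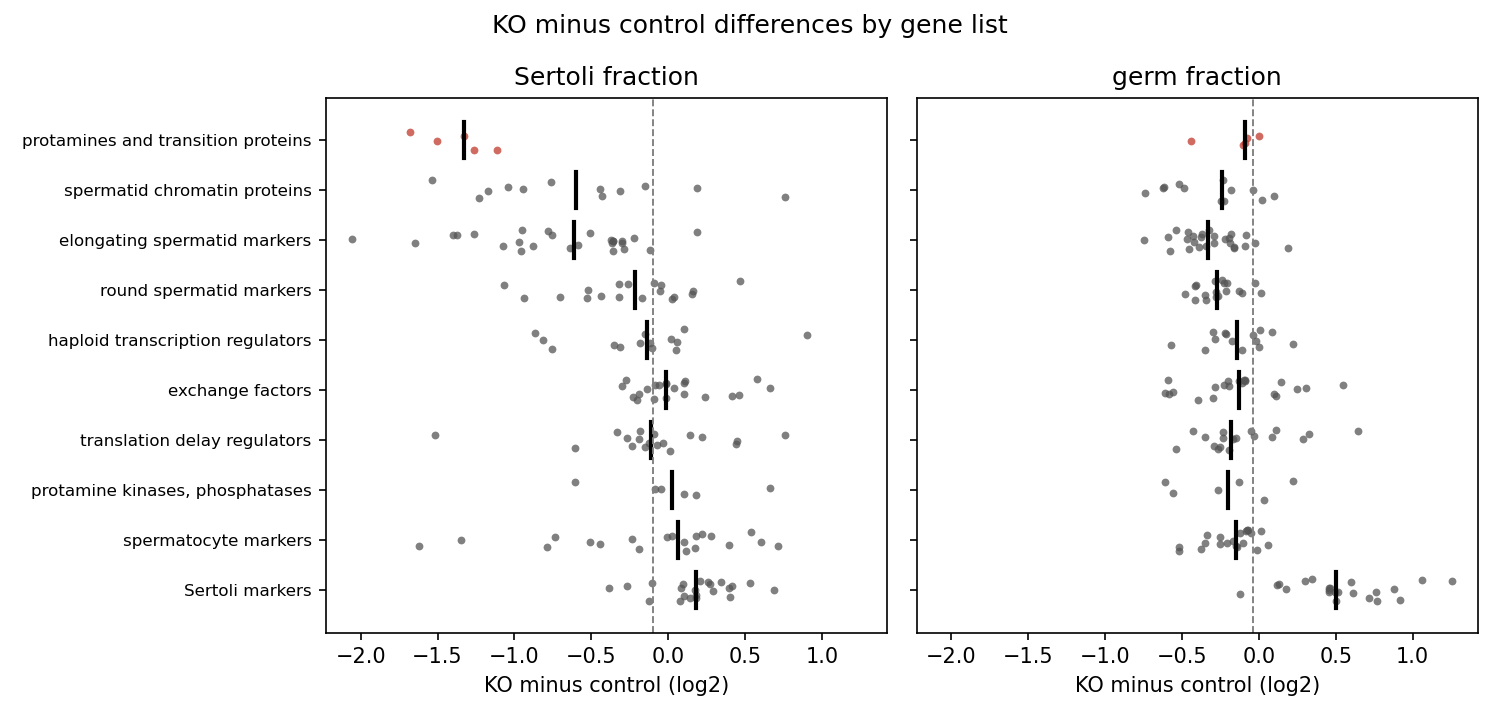
KO minus control difference (x axis, log2) of each tested gene, by list, in the Sertoli fraction (left) and the germ fraction (right). Points are genes (spread vertically within a list only to separate them), black bars list medians and the dashed line the median of all genes tested. The medians of the 5 protamines and transition proteins, in red, are -1.33 in the Sertoli and -0.09 in the germ fraction, and those of the elongating spermatid markers -0.61 and -0.33.

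The genes whose pattern was most like that of the members were found by the root mean square difference between centred log2 profiles. Over all 12 arrays these were Morn5 (0.26), H2al1a (0.34), Tsks (0.35), Spesp1 (0.35) and Ankrd53 (0.36), where the median gene differed by 4.82. Spesp1 was not well above background on any Sertoli array, and Ankrd53 was so on 1 KO and 2 control Sertoli arrays only. Morn5 stood at -4.47 in KO and -3.65 in control Sertoli fractions, and at 5.40 in KO and 5.64 in control germ fractions. Over the 6 Sertoli arrays they were Smcp (0.13), Cacng8 (0.16), Cypt12 (0.17), Akap4 (0.19) and Fabp9 (0.19), where the median gene differed by 0.87. Smcp stood at -5.29 ± 0.12 in KO and -3.89 ± 1.20 in control Sertoli fractions (SD, n = 3 each). Cacng8 was not well above background on any Sertoli array. Over the 6 germ arrays the closest genes were Vps36 (0.03), Snhg10, Mrps9, Nxt1 and Ndufb4, a set that shares no gene with either of the others. There the members' own profile varied by a root mean square of 0.15 and the median gene differed from it by 0.33.

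Of the 11 tested genes next to the members, 2 fell in the Sertoli fraction of KO mice, where 37.1% of all genes did. In that of control mice 1 fell, where 36.5% of all genes did. The others all rose in KO mice, where 9491 of all 25029 genes rose. In control mice, where 9967 of all 25029 genes rose, the others rose except Rmi2 and Igfbp5, which did not pass. On chromosome 16 the order is Dexi, Clec16a, Socs1, then Tnp2, Prm3, Prm2 and Prm1, then Rmi2, Litaf and Snn. In the Sertoli against the germ fraction Socs1, a suppressor of cytokine signalling, rose by 1.45 in KO and 1.53 in control mice. Litaf rose by 3.37 in KO and 4.10 in control mice, and Snn by 3.92 in KO and 2.98 in control mice. Dexi rose by 1.48 in KO mice and likewise passed in control mice (adjusted p = 6.84e-06). Clec16a differed by -1.62 in KO and -1.70 in control mice, less than any member. Rmi2 was at least 3.50-fold lower in the Sertoli fraction of KO mice, where no array was well above background (adjusted p = 0.00023, limma). In control mice, with 1 of 3 Sertoli arrays above background, its difference of -0.98 did not pass (adjusted p = 0.176). Around Tnp1, Igfbp2, which encodes a binding protein of insulin-like growth factors, rose by 5.83 in KO and 6.08 in control mice, and Tns1 by 4.26 and 4.58. Between KO and control mice the smallest adjusted p of these neighbours was 0.814 in the Sertoli fraction (Rmi2) and 0.356 in the germ fraction (Litaf).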

How the data were processed

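The 12 arrays were scanned and read with Agilent Feature Extraction 10.7.3.1, per the file headers. Of the deposited intensity columns, the processed signal was analysed, from which the software had removed background and spatial trend within each array, with no scaling across arrays. Raw median and local background intensity, also deposited, entered only an alternative. The log2 table deposited by the authors has column medians of 8.29 and ranks probes as the processed signal does (Spearman's rho at least 0.9999). How it was made is not given in the sources used here. The submitters' processing notes name limma. Flags for outliers, saturation and background come from the software, per the file headers.

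Control spots (1377 of 44397) and feature outliers were dropped, replicate spots of a probe averaged, and log2 signals set relative to the 75th percentile of the array. Accessions were named through RefSeq's GRCm38.p6 table (26055 of 39429 probes), while the array grid names mm9. Filtering required signal well above background in all 3 mice of some group (30533 probes), and each gene was represented by its brightest probe. limma 3.58.1 (R 4.3.3) was fitted with 4 group means over 12 arrays, adjusted by Benjamini-Hochberg over 25029 genes, threshold 0.05. It was also run on simulated arrays drawn independently, without shared mice or slides. That run does not show how often a difference would be called in these paired arrays. The number of arrays limits the precision. An "at least" fold sets the brighter group's mean against a floor for a group with no array above background: in each array, the probe's own signal or the lowest well-measured signal, whichever is higher.

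Slide 1 carried mice 120 and 99, slide 2 carried 86 and 73, and slide 3 carried 72 and 74, with both fractions of each. Arrays are paired because the fractions of a mouse share the animal. Deviations from the group mean correlated across genes with r from -0.161 (mouse 99) to 0.462 (mouse 74). The members, lists and rules were chosen with earlier results of these data known. Named were all members, list genes past the threshold (at most 6 per list, direction and comparison) or otherwise the 3 with the smallest p, the 5 genes most alike and the 3 neighbours on each side. Alternatives covered background correction, scaling, filters, array weights, mouse and slide blocks, the authors' log2 values and leaving out mice.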

Additional observations from a re-analysis of the deposited data

How the results depend on the processing

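Under every alternative that gave a test, 0 of the 5 genes passed between KO and control mice in either fraction and in the interaction, and all members with a value passed between the fractions in KO and in control mice. These were 5 of 5, except that 4 remained among probes well above background on all 12 arrays, where Prm3 has no value. Every member with a value stood lower in KO Sertoli fractions under each of these settings. With the mouse as a paired replicate block, random or fixed, the counts stayed 5 of 5 between the fractions and 0 of 5 for the interaction, and the block changed no other call. Over the alternatives the lowest adjusted p of the Sertoli difference was 0.205, for Tnp2. With 1 mouse left out that difference ranged from -1.93 to -0.87 for Prm1, -1.73 to -0.65 for Prm2, -2.19 to -0.96 for Prm3, -1.48 to -0.65 for Tnp1 and -1.61 to -0.85 for Tnp2. The small germ differences changed sign: Tnp1 was -0.11 when arrays were scaled to the median, Prm2 0.0269 with array weights, and Prm1 0.0436 and Tnp1 -0.12 without both control mice titled het. With 1 mouse left out the germ difference ranged from -0.18 to 0.0581 for Prm1, -0.24 to 0.0832 for Prm2, -0.13 to 0.0762 for Tnp1 and -0.17 to 0.0417 for Tnp2. The cause was not tested. Leaving out spots with an outlying local background was chosen after seeing the data and was not fitted. It would take all 6 germ arrays from Prm1, Prm2, Prm3 and Tnp2 and 5 from Tnp1. No Sertoli array of Prm1, Prm2, Tnp1 or Tnp2 would be lost, while Prm3 would lose 9 arrays, Sertoli arrays among them. Prm3 in KO Sertoli fractions is limited by background, and the other 4 genes by the 3 mice per group.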
